A study of Rattus norvegicus with 12 samples.

Results

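Icam1, Icam2, Vcam1, Sele, Selp and Selplg encode proteins by which blood leukocytes are caught on the vessel wall. Ackr1 encodes a chemokine receptor of venules. These 7 genes were taken by gene symbol from a table of 37209 symbols, and all 7 are in the table. Each had enough counts to be tested, among 17008 genes that did. Sele and Selp had too few counts in the shams to pass the count filter there, and passed it through the stroke libraries. Their place among the tested genes is therefore no support for their changes. Brain RNA of Sprague Dawley rats at postnatal day 21 was sequenced in 12 libraries of 4 groups, with 3 libraries per group. The stroke of the MCAO group, middle cerebral artery occlusion, closes a large artery that feeds the forebrain. The other groups were sham LN, pontine infarction (a stroke of the pons in the brainstem) and sham PN. The codes LN and PN come from the sample titles. Each stroke was set against the sham whose code shares its first letter. The labels give neither the dissected region, the time after stroke, nor whether shams were pooled, and they mention 3 rats for each stroke, so the p-values measure the spread between these samples. The column code of 1 MCAO library carries a number found in no sample title, and it is called the unnumbered MCAO library. Values of the MCAO libraries are given in the order replicate 1, replicate 2, unnumbered, and those of the other groups in the order of replicates 1 to 3.

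Leukocytes leave the blood in steps. Selectins on activated endothelium (Sele, E-selectin, and Selp, P-selectin) let leukocytes roll by binding sugars on PSGL-1, which leukocytes carry and Selplg encodes. Integrins on the leukocyte then bind the immunoglobulin-family proteins ICAM-1, ICAM-2 and VCAM-1 and hold the cell firmly before it crosses the wall. Ackr1, the atypical chemokine receptor 1, displays and carries chemokines on venules. In resting brain endothelium E-selectin and P-selectin are scarce, and inflammatory cytokines acting through NF-kB raise the transcription of Icam1, Vcam1 and Sele. P-selectin is also held in platelet granules.

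Because the NF-kB transcription factor is known to act at these genes, the promoter windows of the members are shown with the letters that match its consensus. RefSeq windows were at hand for 3 of the 7 members, Icam1, Vcam1 and Sele, on build GRCr8, a newer build than the Rnor_6.0 of the counts. Each window is 250 bases long, runs 5′ to 3′ on the gene's strand and ends just before the annotated start. Capitals mark matches on either strand to the kappaB consensus in its p50 or RelA form, or to TATAAA. The Icam1 window is chr8:27829595-27829844 on the plus strand, that of Vcam1 is chr2:206742784-206743033 on the minus strand, and that of Sele is chr13:78936264-78936513 on the plus strand.
Icam1: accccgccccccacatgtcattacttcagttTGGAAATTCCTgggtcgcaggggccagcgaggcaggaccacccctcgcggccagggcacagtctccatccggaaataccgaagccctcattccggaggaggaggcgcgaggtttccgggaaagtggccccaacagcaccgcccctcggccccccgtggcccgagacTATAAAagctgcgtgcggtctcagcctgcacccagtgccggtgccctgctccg
Vcam1: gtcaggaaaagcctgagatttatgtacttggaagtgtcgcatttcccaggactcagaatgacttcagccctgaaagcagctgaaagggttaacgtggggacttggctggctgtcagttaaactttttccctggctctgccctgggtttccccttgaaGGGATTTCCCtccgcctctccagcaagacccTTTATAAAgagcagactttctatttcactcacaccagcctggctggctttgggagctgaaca
Sele: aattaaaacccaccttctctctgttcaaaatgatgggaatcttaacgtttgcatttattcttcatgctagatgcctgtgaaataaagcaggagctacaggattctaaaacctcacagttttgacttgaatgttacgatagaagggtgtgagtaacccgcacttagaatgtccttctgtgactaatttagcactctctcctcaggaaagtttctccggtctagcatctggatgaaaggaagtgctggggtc
The Icam1 window holds TGGAAATTCC, a RelA form that begins 219 bases before the start and overlaps a match on the other strand at 218 bases. The Vcam1 window holds GGGATTTCCC, a p50 form that reads as a match on both strands, 93 bases before the start. Just upstream of it, the letters gggtttcccc differ from the p50 form at a single letter and so were not marked. The marked letters are thus not a full list of possible kappaB sites. TATAAA begins 53 bases before the start of Icam1 and 60 bases before that of Vcam1, where it overlaps a match on the other strand. No searched letters were found in the Sele window, which covers only the bases just before the annotated start. Whether that start is the one in use in these samples was not tested. Among 33469 RefSeq rat windows of that length, 6.33% held the p50 form, 6.33% the RelA form, 10.6% either form and 12.9% TATAAA. The RelA form was added after the sequences were read, and a match or its absence describes the letters of these windows only.

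The libraries held 19805815 to 40400676 counts. Levels are CPM, counts scaled to a common library total with TMM factors, given as mean ± SD of the 3 libraries, and log2 changes are given ± SE. They are compared within a gene, never between genes, since no transcript lengths entered them. Snap25, a neuronal synaptic protein, lay at 901 to 1259 CPM after MCAO against 1291 to 1547 CPM in sham LN. After pontine infarction it lay at 469 to 828 CPM against 904 to 1181 CPM in sham PN. Mbp, a myelin protein, lay at 5166 to 8328 CPM after MCAO against 10149 to 15035 CPM in sham LN. After pontine infarction it lay at 19180 to 21949 CPM against 30436 to 38989 CPM in sham PN. Each range was wholly below that of its shams. The part of tissue composition in the other levels was not tested. A list of 14 endothelial markers summed to 558 to 582 CPM after MCAO, 478 to 618 CPM in sham LN, 543 to 635 CPM after pontine infarction and 573 to 654 CPM in sham PN, so the summed endothelial level overlapped between each stroke and its sham. Its members did not move alike after MCAO. Cldn5, a tight junction protein, stood at 74.6, 122 and 50.8 CPM in the MCAO libraries against 122 to 156 CPM in sham LN, and Slco1c1, a thyroid hormone transporter, at 10.7, 71.8 and 10.1 CPM against 82.9 to 105 CPM. Both lay wholly below the shams without passing (edgeR adjusted p = 0.109 and 0.136), as 18.7% of all genes lay wholly below. For Cldn5 the gap was narrow, with 121.95 CPM in MCAO replicate 2 against 122.29 CPM in the lowest sham. Cdh5, of the same list, lay wholly above the shams without passing, at 21.7, 18.1 and 29.7 CPM against 9.33 to 17.5 CPM. Over all genes 20.4% lay wholly above. Of those 14 genes, 1 rose after MCAO (Egfl7, a secreted endothelial protein, log2 change 0.72 ± 0.21, edgeR adjusted p = 0.0349), and none passed after pontine infarction. Over all genes tested 12.5% rose after MCAO, and 4.08% passed after pontine infarction. In bulk tissue, fewer cells of a type and less RNA per cell cannot be told apart. Of 8 leukocyte-wide markers, summed levels were 333 to 1077 CPM after MCAO against 151 to 188 CPM in sham LN, and 402 to 956 CPM after pontine infarction against 120 to 141 CPM in sham PN. MCAO replicate 2 stood closer to its shams than the other MCAO libraries, with 83.1 CPM of 10 neutrophil markers, against 2961 CPM in MCAO replicate 1 and 695 CPM in the unnumbered library. Lcn2, which reactive astrocytes make as well, held much of these sums, and without it they were 50.3 CPM in MCAO replicate 2, 602 CPM in replicate 1 and 267 CPM in the unnumbered library, against 3.48 to 4.51 CPM in sham LN. Of that remainder Csf3r held 36.4 CPM in MCAO replicate 2, 194 CPM in replicate 1 and 140 CPM in the unnumbered library. In sham LN it held 3.21 to 4.21 CPM. Pontine infarction replicate 3 stood apart in tissue markers. Gabra6, Cbln3 and Pcp2, genes of the cerebellum, were at 75.2, 73.7 and 58.2 CPM in it, and each was below 5 CPM in every other library. A list of 8 fibroblast and meningeal markers summed to 547, 1215 and 2722 CPM in the pontine infarction libraries, against 1192 to 1445 CPM in sham PN. The part of this tissue in the levels of that library was not tested.

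**Figure D1:**
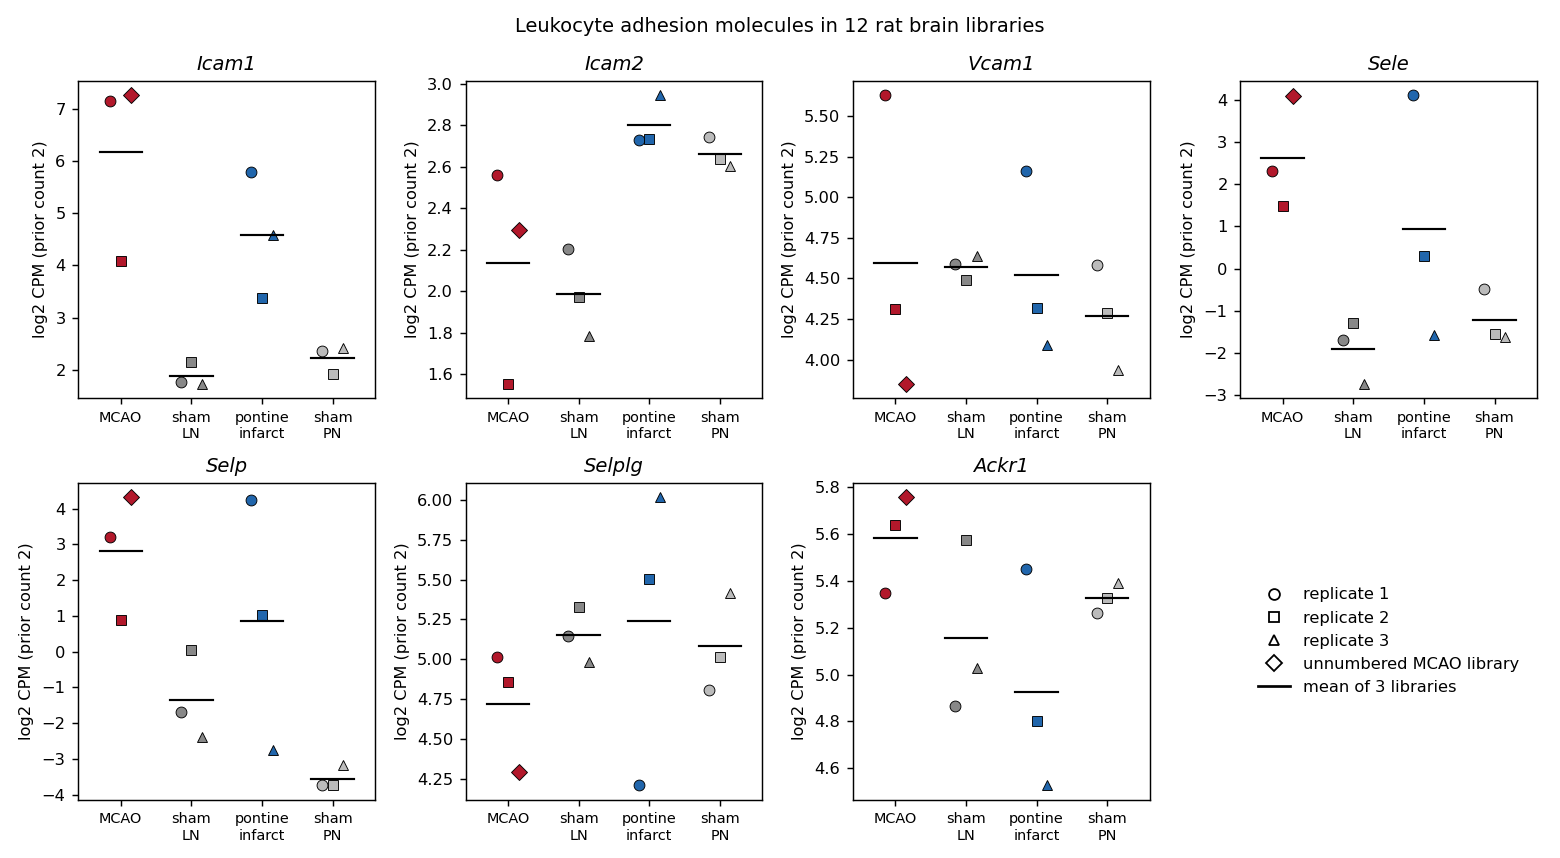
Level of each gene in each library as log2 CPM with a prior count of 2 (y axis, a different scale in each panel) for the 4 groups (x axis), with marker shapes for the replicate and a line for the mean of 3 libraries. The MCAO libraries stand above sham LN for Icam1, Sele and Selp, while the 4 groups of Vcam1, Selplg and Ackr1 overlap.

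After MCAO, compared with sham LN to see which adhesion transcripts differ after a stroke of the hemisphere, Icam1 and Sele rose and 5 of the 7 genes did not pass the threshold, an adjusted p of 0.05. Selp lay just outside it. Across all genes tested, 12.5% rose, against 2 of the 7 here, and 6.07% fell, against 0 of 7, which makes 18.6% in either direction. The median log2 change of the 7 genes was 0.40, beside -0.0018 over all 17008 genes. In 3 of the 7, Icam1, Sele and Selp, all MCAO libraries stood above all sham LN libraries, which held for 20.4% of all genes, and none stood wholly below, as 18.7% of all genes did.

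Icam1, the ligand of the leukocyte integrins LFA-1 and Mac-1, stood at 143, 16.8 and 153 CPM in the MCAO libraries, against 3.32, 4.37 and 3.25 CPM in sham LN. The groups do not overlap, but on the log2 scale MCAO replicate 2 lay nearer to the shams than to the other MCAO libraries. On average 105 ± 76.1 CPM after MCAO faced 3.65 ± 0.629 CPM in sham LN. That is a 28.7-fold higher level (log2 change 4.84 ± 0.80, 95% interval 3.09 to 6.59, edgeR adjusted p = 0.00368). Under all 18 alternative settings the change passed, at log2 changes of 3.82 to 5.25 and adjusted p-values up to 0.0276.

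Sele, E-selectin, had 102, 55 and 349 counts in the MCAO libraries, against 9, 9 and 2 counts in sham LN. In CPM these are 4.91, 2.71 and 16.9 after MCAO, against 0.237, 0.334 and 0.0765 in sham LN. Every MCAO library was above every sham, and the unnumbered library was the highest. The log2 change was 5.20 ± 1.39 (95% interval 2.16 to 8.24, edgeR adjusted p = 0.0258). The call was lost without the unnumbered MCAO library (log2 change 4.10, adjusted p = 0.0896), and without sham LN replicates 1, 2 or 3 (adjusted p = 0.0912, 0.0719 and 0.0925).

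Selp, P-selectin, had 190, 36 and 411 counts in the MCAO libraries, against 9, 26 and 3 counts in sham LN. At 9.14, 1.78 and 19.9 CPM after MCAO, against 0.237, 0.964 and 0.115 CPM in sham LN, the groups did not overlap, yet MCAO replicate 2 was less than a single log2 step above sham LN replicate 2. The change did not pass (log2 change 4.56 ± 1.47, 95% interval 1.34 to 7.77, edgeR adjusted p = 0.051). Without MCAO replicate 2 it passed (log2 change 4.96, adjusted p = 0.0206). Over its 18 alternatives the adjusted p ran from 0.0187 to 0.328, and 6 of them were under the threshold. Platelets also store P-selectin, and 9 platelet markers summed to 6.76 to 13.6 CPM after MCAO and 5.48 to 7.34 CPM in sham LN. Gp9, a platelet membrane protein, had at most 1 count in any library. Ppbp and Gp1bb are listed at 0 in all 12 libraries, but so is the widely expressed Ikbkg, so a symbol at 0 throughout may not have been counted. Of 3 platelet genes tested 1 rose, beside 12.5% of all genes. It was Pf4, a chemokine that macrophages make as well (log2 change 3.03 ± 0.69, edgeR adjusted p = 0.0134).

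Vcam1, the ligand of the integrin alpha4-beta1, stood at 49.4, 19.8 and 14.4 CPM in the MCAO libraries, against 24.0, 22.4 and 24.8 CPM in sham LN. MCAO replicate 1 was above all 3 shams and the other MCAO libraries were below them, so that the spread after MCAO (27.8 ± 18.8 CPM) exceeded that of the shams (23.7 ± 1.22 CPM). The log2 change of 0.23 ± 0.41 did not pass (95% interval -0.66 to 1.12, edgeR adjusted p = 0.716), and without MCAO replicate 1 it was -0.56 (adjusted p = 0.28). That library also held 1121 CPM of 8 choroid plexus markers, against 6.81 and 11.4 CPM in the other MCAO libraries and 4.04 to 5.72 CPM in sham LN. Choroid plexus can express Vcam1, and the part of those cells in its Vcam1 level was not tested.

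Icam2, an integrin ligand that endothelium carries without activation, stood at 5.82, 2.86 and 4.84 CPM in the MCAO libraries, against 4.53, 3.85 and 3.37 CPM in sham LN. The MCAO libraries lay on both sides of the shams (log2 change 0.20 ± 0.26, 95% interval -0.37 to 0.77, edgeR adjusted p = 0.612). Prr29 overlaps Icam2 in the RefSeq annotation and had 0 to 3.85 CPM in the 12 libraries. The counting's use of strand was not given in the sources used here, so reads of overlapping genes cannot be told apart.

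Selplg, the selectin ligand PSGL-1 of leukocytes and resting microglia, stood at 32.2, 29.0 and 19.5 CPM in the MCAO libraries, against 35.3, 40.1 and 31.5 CPM in sham LN. The unnumbered library was the lowest, and the groups overlapped (log2 change -0.41 ± 0.36, 95% interval -1.20 to 0.39, edgeR adjusted p = 0.445). Over the same libraries the summed leukocyte-wide markers were higher in every MCAO library than in any sham LN library. They include Itgb2, which microglia carry as well, so the sum does not separate blood leukocytes from microglia. A list of 10 resting microglia markers summed to 297, 403 and 283 CPM in the MCAO libraries, against 409, 403 and 345 CPM in sham LN. Among them Tmem119, a microglial gene that lies next to Selplg, stood at 7.17, 24.5 and 4.55 CPM in the MCAO libraries, against 43.3, 44.1 and 42.1 CPM in sham LN (log2 change -1.84 ± 0.58, edgeR adjusted p = 0.0473).

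Ackr1 stood at 40.7, 49.8 and 54.0 CPM in the MCAO libraries, against 29.1, 47.6 and 32.6 CPM in sham LN. Sham LN replicate 2 lay within the MCAO range (log2 change 0.40 ± 0.24, 95% interval -0.13 to 0.94, edgeR adjusted p = 0.256). Beside it, 7 venule markers summed to 225 to 414 CPM after MCAO against 113 to 162 CPM in sham LN. Of the 7, 3 rose (median log2 change 0.52), beside 12.5% of all genes. Without Lrg1 and the cytokine receptor Il1r1, the sums of the other 5 were 145 to 215 CPM after MCAO and 101 to 147 CPM in sham LN, and overlapped. The largest of these changes was that of Lrg1, a secreted glycoprotein of venules and neutrophils (log2 change 3.62 ± 0.71, edgeR adjusted p = 0.00745). Which cells held the Ackr1 transcript was not tested.

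**Figure D2:**
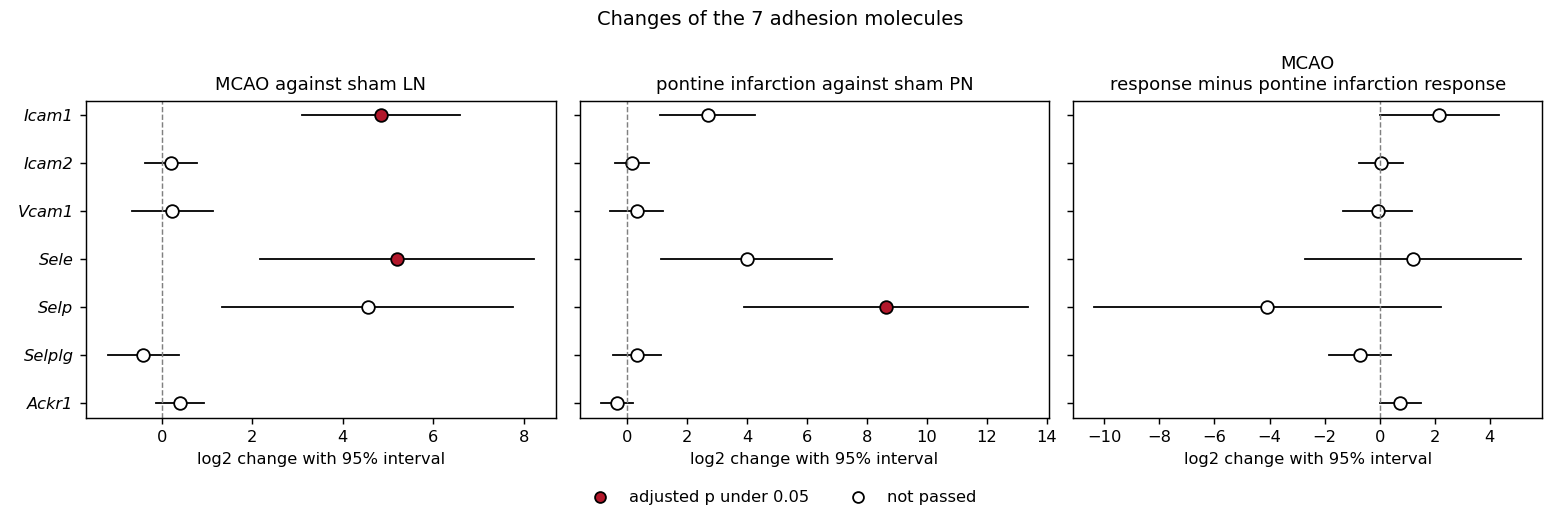
Log2 change of each gene (x axis, with 95% interval) for MCAO against sham LN, for pontine infarction against sham PN and for the difference between these responses, from the edgeR fit of 12 libraries. Filled points passed the threshold of 0.05, which Icam1 (4.84) and Sele (5.20) did after MCAO, Selp (8.63) after pontine infarction, and no gene in the difference.

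After pontine infarction, compared with sham PN to see the same genes after a stroke of the brainstem, Selp rose and 6 of the 7 genes did not pass. Across all genes tested 3.21% rose, against 1 of 7 here, and 0.87% fell, against 0 of 7, which makes 4.08% in either direction. The median log2 change of the 7 genes was 0.32, beside -0.08 over all genes. Icam1 and Selp had groups that did not overlap, higher after the infarct, as 13.3% of all genes did, and none lay wholly below, as 18.7% of all genes did.

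Selp had 408, 84 and 2 counts in the pontine infarction libraries, against 0, 0 and 1 count in sham PN. Replicate 1 was high at 19.0 CPM, replicate 2 intermediate at 1.96 CPM, and replicate 3, at 0.0748 CPM, was within a single count of the shams. The 494 counts of the infarct libraries against the 1 of the shams give a ratio of 421 with a 95% counting interval of 75.2 to 16660, which covers counting error only. The fit gave a log2 change of 8.63 ± 2.16 (95% interval 3.90 to 13.36, edgeR adjusted p = 0.0482), a value that depends on how the fit treats counts near 0. Of the 17 alternatives that gave a value, 8 passed, and limma voom did not (log2 change 5.65, adjusted p = 0.338). The call was also lost without pontine infarction replicate 1 (5.92, adjusted p = 0.128) and without sham PN replicates 1, 2 or 3 (adjusted p = 0.129, 0.185 and 0.212). It was lost as well without the unnumbered MCAO library (adjusted p = 0.0551) or sham LN replicates 1, 2 or 3 (0.0722, 0.0604 and 0.0666). Those libraries are outside this comparison, and leaving them out changes the TMM factors, the shared estimate of the spread and the genes kept. Platelet markers summed to 6.37, 10.1 and 23.8 CPM in the pontine infarction libraries and to 3.27 to 4.64 CPM in sham PN, and Pf4 alone held 19.0 CPM of the highest of these. Without Pf4 the sums were 2.65, 3.46 and 4.82 CPM in the pontine infarction libraries, against 2.28 to 3.38 CPM in sham PN. Without pontine infarction replicate 3, the library that stood apart in cerebellar markers, Selp passed (log2 change 9.21, adjusted p = 0.03).

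Sele had 367, 49 and 7 counts in the pontine infarction libraries, against 15, 7 and 7 counts in sham PN. In CPM these were 17.1, 1.15 and 0.262 after the infarct, against 0.645, 0.264 and 0.252 in sham PN. Replicate 3 lay inside the sham range, and the groups overlapped. The log2 change of 3.98 ± 1.31 (95% interval 1.12 to 6.84) did not pass (edgeR adjusted p = 0.11), and without pontine infarction replicate 1 it was 0.91 (adjusted p = 0.614), and without replicate 3 it was 4.55 (adjusted p = 0.0658). DESeq2 called it (log2 change 4.03, adjusted p = 0.00443).

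Icam1 was above the shams in all 3 infarct libraries, at 55.4, 10.3 and 24.0 CPM in the pontine infarction libraries, against 5.03, 3.70 and 5.28 CPM in sham PN. Replicate 3, the library with the cerebellar markers and with sham-like selectin levels, had the middle Icam1 level. Without it the log2 change was 2.81 (edgeR adjusted p = 0.114). The log2 change was 2.67 ± 0.73 (95% interval 1.07 to 4.27), a 6.38-fold higher level, and did not pass (edgeR adjusted p = 0.0635). It passed in 5 of 18 alternatives, among them DESeq2 (log2 change 2.71, adjusted p = 0.000857) and the fit without pontine infarction replicate 2 (3.09, adjusted p = 0.0304), and its adjusted p ran up to 0.265.

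The other 4 genes overlapped between the infarct and its shams. Vcam1 stood at 35.8, 19.9 and 16.9 CPM in the pontine infarction libraries, against 23.9, 19.4 and 15.2 CPM in sham PN (log2 change 0.31 ± 0.41, edgeR adjusted p = 0.694). Only replicate 1 was above the sham range. Icam2 stood at 6.56, 6.57 and 7.63 CPM after the infarct, against 6.62, 6.16 and 6.001 CPM in sham PN (log2 change 0.14 ± 0.26, edgeR adjusted p = 0.78). Selplg spread widely, at 18.4, 45.2 and 64.7 CPM in the pontine infarction libraries, against 27.9, 32.3 and 42.7 CPM in sham PN (log2 change 0.32 ± 0.36, edgeR adjusted p = 0.64). The resting microglia markers ran in the same order, at 353, 625 and 1185 CPM in the pontine infarction libraries, beside 356 to 393 CPM in sham PN. Their part in the Selplg level was not tested. Without replicate 3 the log2 change of Selplg was -0.10 (edgeR adjusted p = 0.912). Ackr1 stood at 43.7, 27.8 and 23.0 CPM in the pontine infarction libraries, against 38.3, 40.1 and 41.9 CPM in sham PN. Replicates 2 and 3 were below all shams and replicate 1 above them (log2 change -0.35 ± 0.24, edgeR adjusted p = 0.43).

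**Figure D3:**
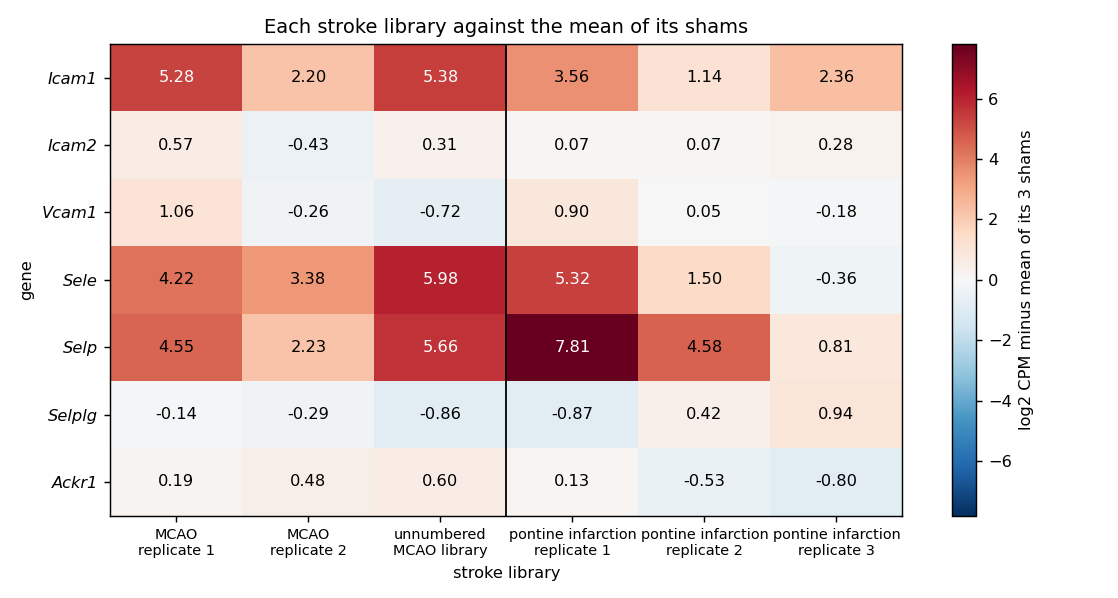
Log2 CPM of each stroke library (columns) minus the mean of its 3 shams (colour and printed value) for the 7 genes (rows). Icam1 is positive in all 6 stroke libraries, from 1.14 to 5.38, whereas Sele and Selp reach only -0.36 and 0.81 in pontine infarction replicate 3.

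Set against the mean of their shams, the stroke libraries did not order the genes alike. In pontine infarction replicate 3, Icam1 was 2.36 log2 units above sham PN while Sele was at -0.36 and Selp at 0.81. In MCAO replicate 2, Icam1 stood at 2.20, Sele at 3.38 and Selp at 2.23 log2 units above sham LN. Neutrophil markers summed to 1069, 109 and 107 CPM in the pontine infarction libraries, against 4.92 to 8.00 CPM in sham PN. Among these infarct libraries, the one with the highest Selp and Sele was also the highest in neutrophil markers. Without Lcn2 the sums were 198, 21.0 and 49.0 CPM in the pontine infarction libraries, against 3.77 to 5.10 CPM in sham PN. Csf3r alone held 77.1, 17.8 and 44.4 CPM of them, against 3.31 to 4.46 CPM in sham PN. The sums of replicates 2 and 3 thus rest mostly on that gene. S100a9 held 67.9, 1.36 and 1.72 CPM, against 0.0719 to 0.430 CPM in sham PN. After MCAO the order differed. The unnumbered library had the highest Selp and Sele (19.9 and 16.9 CPM) with 695 CPM of neutrophil markers. MCAO replicate 1 had 9.14 and 4.91 CPM of Selp and Sele with 2961 CPM of neutrophil markers. The part of neutrophils in the Selp and Sele levels was not tested. The SD of log2 CPM within a stroke group was 1.75 for Selp, 1.33 for Sele and 1.81 for Icam1 after MCAO, and 3.50, 2.89 and 1.21 after pontine infarction. The median SD over all genes tested was 0.37 after MCAO and 0.32 after pontine infarction. Ackr1 and Selplg spread by 0.21 and 0.38 after MCAO and by 0.48 and 0.93 after pontine infarction.

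The difference between the responses, MCAO minus pontine infarction, passed for none of the 7 genes. By the same edgeR test it passed for 0 of the 17008 genes (0%), with 1826 at an unadjusted p under 0.05 and 238 called by DESeq2. For Icam1 it was 2.17 ± 0.99 log2 units, higher after MCAO, with a 95% interval of -0.0034 to 4.34 (edgeR adjusted p = 0.466). For Ackr1 it was 0.75 ± 0.35, with an interval from -0.0012 to 1.51 (edgeR adjusted p = 0.466). For Sele the interval ran from -2.70 to 5.13, and for Selp, at -4.08 ± 2.87, from -10.36 to 2.21. The intervals of Icam2 (-0.75 to 0.86), Vcam1 (-1.34 to 1.18) and Selplg (-1.85 to 0.39) also include 0, so a call in one stroke and not in the other does not show that the responses differ.

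Between the shams, none of the 7 genes passed, whereas 21.3% of all genes did, and the median log2 difference was -0.14 for the 7 genes, beside -0.11 over all genes. Icam2 was lower in all sham LN libraries than in any sham PN library, at 3.92 ± 0.585 CPM in sham LN against 6.26 ± 0.322 CPM in sham PN (log2 difference -0.67 ± 0.26, edgeR adjusted p = 0.0894). Groups apart in that direction were found for 29.2% of all genes. Selp had 38 counts over the sham LN libraries, 26 of them in replicate 2, against 1 over the sham PN libraries, a ratio of 32.4 (95% counting interval 5.47 to 1311), and did not pass (edgeR adjusted p = 0.214). Higher in sham LN without overlap were 21.7% of all genes. Icam5, the neuronal ICAM of the telencephalon, differed between the shams, at 301 ± 14.6 CPM in sham LN against 10.7 ± 0.427 CPM in sham PN (log2 difference 4.81 ± 0.40, edgeR adjusted p = 1.86e-05). Of the venule markers, Plvap, a protein of fenestrated endothelium, was lower in sham LN (1.55 ± 0.222 CPM) than in sham PN (19.2 ± 2.14 CPM, log2 difference -3.62 ± 0.38, edgeR adjusted p = 7.3e-05).

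Ordered by mean CPM, Icam1 was highest after MCAO (105), then after pontine infarction (29.9), in sham PN (4.67) and in sham LN (3.65), and only the pontine infarction and sham PN ranges were apart among these neighbours. Icam2 ran from pontine infarction (6.92) through sham PN (6.26) and MCAO (4.51) to sham LN (3.92), with a gap between the ranges of sham PN and MCAO alone. Selp ran from MCAO (10.3) through pontine infarction (7.01) and sham LN (0.438) to sham PN (0.0120), and only the 2 sham ranges were apart. For Sele (8.17 CPM after MCAO, 6.16 after pontine infarction, 0.387 in sham PN and 0.216 in sham LN) each range overlapped its neighbour's. The same held for Vcam1, whose means lay between 19.5 and 27.8 CPM, for Selplg between 26.9 and 42.8 CPM, and for Ackr1 between 31.5 and 48.2 CPM.

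The genes most like each member were sought among 15487 candidates by the root-mean-square difference of log2 CPM over the 12 libraries, each gene centred on its own mean. Icam1, whose own root-mean-square deviation was 1.97, was closest to Osmr, the oncostatin M receptor (0.33), Itga5, an integrin subunit for fibronectin (0.41), and Antxr2 (0.43). Osmr had 64.3, 6.66 and 54.6 CPM in the MCAO libraries, against 1.68 to 2.37 CPM in sham LN, and shares the low value of MCAO replicate 2 with Icam1. For Selp the closest gene was Sele (1.32, beside an own deviation of 2.91). Sele itself (own deviation 2.25) was closest to LOC102555751 (0.82) and Adamts1, a secreted protease (0.83). Vcam1 (own deviation 0.48) was closest to LOC680200 (0.29), Selplg (0.48) to Fkbp9 (0.22) and Icam2 (0.42) to Gfer (0.13). Ackr1 (own deviation 0.36) was closest to Rasgef1c (0.18) and Prkar1b (0.18), a neuronal regulatory subunit of protein kinase A. These members varied less than Icam1, Sele and Selp, so their smaller distances do not mean a closer likeness. Cadm3, a neuronal adhesion gene next to Ackr1 in the RefSeq order, was farther away (0.50), with 227, 548 and 345 CPM in the MCAO libraries, against 438 to 600 CPM in sham LN. These distances describe 12 libraries that share their groups and depth.

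**Figure D4:**
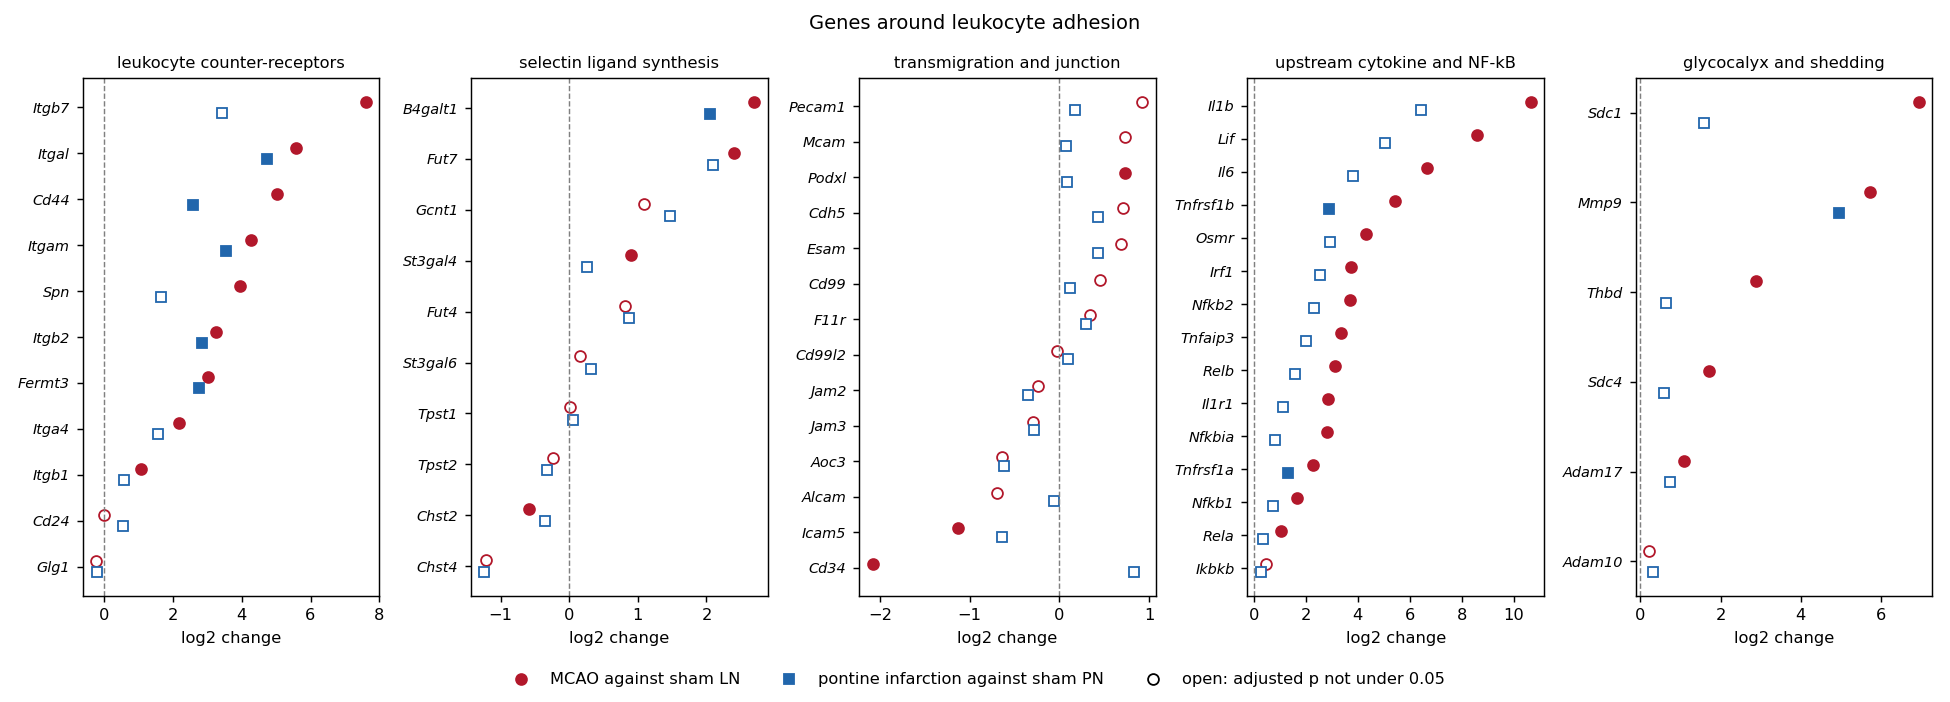
Log2 change (x axis) of the tested genes of 5 lists (panels, genes on the y axis) for MCAO against sham LN (red circles) and pontine infarction against sham PN (blue squares), filled where the adjusted p is under 0.05. Among the leukocyte counter-receptors 9 of 11 circles and 5 of 11 squares are filled, and among the transmigration and junction genes 3 of 14 circles and no square. Over all genes tested 18.6% passed after MCAO and 4.08% after pontine infarction.

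Most genes of the leukocyte counter-receptor list rose after MCAO. Of 11 leukocyte counter-receptors and their partners, 9 rose after MCAO and 2 did not pass (median log2 change 3.26, beside -0.0018 over all genes). After pontine infarction 5 rose and 6 did not pass (median 2.58, beside -0.08). Over all genes tested 12.5% rose after MCAO and 3.21% after pontine infarction. Itgal and Itgam, which pair with Itgb2 to form the ICAM-1 receptors LFA-1 and Mac-1, stood at 53.0 ± 37.9 and 148 ± 84.0 CPM after MCAO, against 1.08 ± 0.370 and 7.68 ± 1.59 CPM in sham LN (by log2, 5.59 ± 0.65 for Itgal and 4.26 ± 0.45 for Itgam, edgeR adjusted p = 0.00116 and 0.00084). After pontine infarction they stood at 53.6 ± 24.4 and 98.8 ± 33.8 CPM, against 2.005 ± 0.540 and 8.50 ± 1.26 CPM in sham PN (log2 changes 4.74 ± 0.62 and 3.54 ± 0.44, edgeR adjusted p = 0.00537 and 0.00508). Itga4 and Itgb1, the subunits of the VCAM-1 receptor, rose after MCAO, Itga4 by 2.18 ± 0.44 and Itgb1 by 1.08 ± 0.23 on the log2 scale (edgeR adjusted p = 0.00849 and 0.00993). Itgb7, with 8 counts over sham LN and 33 over sham PN, passed the count filter only through the stroke libraries. Its place in the list's counts is therefore no support for them. Microglia carry Itgam and Itgb2 as well, and Itgb1 already stood at 96.4 to 97.8 CPM in sham LN. The list therefore does not separate blood leukocytes from microglia or other cells.

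Of 15 tested cytokine and NF-kB genes, 14 rose after MCAO and 1 did not pass (median log2 change 3.35). After pontine infarction 2 rose and 13 did not pass (median 1.99). Over all genes tested 12.5% rose after MCAO and 3.21% after pontine infarction. Il1b, a cytokine that activates endothelium, stood at 188 ± 162 CPM after MCAO, against 0.120 ± 0.153 CPM in sham LN (log2 change 10.66 ± 2.05, edgeR adjusted p = 0.00697). Il1b, Il6 and Lif had 10, 7 and 7 counts over sham LN and 26, 6 and 9 over sham PN. These were too few to pass the count filter there, and the genes passed it through the stroke libraries. Their place among the tested genes is therefore no support for their changes or for the list's count and median. Tnfrsf1b, a TNF receptor, stood at 171 ± 148 CPM after MCAO against 3.8996 ± 0.769 CPM in sham LN, and at 30.1 ± 22.0 CPM after pontine infarction against 4.06 ± 0.514 CPM in sham PN (log2 changes 5.45 ± 0.77 and 2.89 ± 0.70, edgeR adjusted p = 0.00238 and 0.0434). Tnf itself had too few counts to be tested, with 10 counts over the MCAO libraries, 2 over sham LN, 8 over pontine infarction and 0 over sham PN. The list's summed level was highest in MCAO replicate 1 (2253 CPM) and, among the infarct libraries, in replicate 1 (880 CPM), the infarct library with the highest Icam1, Sele and Selp. Among the MCAO libraries the unnumbered one held the highest level of these 3 genes.

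Of 10 genes that build selectin ligands, 3 rose, 1 fell and 6 did not pass after MCAO (median log2 change 0.49), and 1 rose and 9 did not pass after pontine infarction (median 0.29). Over all genes tested 12.5% rose and 6.07% fell after MCAO, and 3.21% rose and 0.87% fell after pontine infarction. Fut7, the fucosyltransferase that finishes the selectin-binding sugar, stood at 1.94 ± 0.976 CPM after MCAO against 0.365 ± 0.0371 CPM in sham LN (log2 change 2.40 ± 0.74, edgeR adjusted p = 0.0432). B4galt1, a galactosyltransferase, rose after both strokes (log2 changes 2.69 ± 0.49 and 2.05 ± 0.48, edgeR adjusted p = 0.00565 and 0.0383), and Chst2, a sulfotransferase, fell after MCAO (-0.59 ± 0.13, edgeR adjusted p = 0.0132). Of 14 tested genes of junctions and transmigration, 1 rose, 2 fell and 11 did not pass after MCAO (median 0.16), and none passed after pontine infarction (median 0.09). In either direction 18.6% of all genes passed after MCAO, which is near the share in this list. Podxl, a sialomucin of endothelium, rose after MCAO (0.73 ± 0.17, edgeR adjusted p = 0.0163). Cd34, another such sialomucin, fell to 11.5 ± 7.68 CPM after MCAO, against 48.8 ± 11.5 CPM in sham LN (log2 change -2.08 ± 0.60, edgeR adjusted p = 0.0341). Icam5 fell as well, to 137 ± 91.1 CPM after MCAO, against 301 ± 14.6 CPM in sham LN (edgeR adjusted p = 0.0392). Pecam1, the junctional adhesion protein through which leukocytes pass, did not pass (32.9 ± 12.1 CPM after MCAO against 17.3 ± 2.74 CPM in sham LN, edgeR adjusted p = 0.0642). Of 6 tested genes of the glycocalyx and of shedding, 5 rose after MCAO and 1 did not pass (median 2.30), and 1 rose and 5 did not pass after pontine infarction (median 0.69). Among these, Adam17, a protease that sheds proteins from the cell surface, had a log2 change of 1.09 ± 0.30 after MCAO (edgeR adjusted p = 0.0285). Mmp9, a gelatinase of neutrophils and vessels, rose after both strokes, to 172 ± 124 CPM after MCAO against 3.22 ± 0.975 CPM in sham LN and to 15.01 ± 15.8 CPM after pontine infarction against 0.484 ± 0.289 CPM in sham PN (edgeR adjusted p = 0.00348 and 0.0222).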

How the data were processed

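Gene counts of 12 rat brain libraries were used as the authors deposited them, as unscaled whole-number counts per gene symbol. HISAT2 and the rat build Rnor_6.0 are named in the submitters' processing notes. The counting program, annotation and use of strand: not given in the sources used here. The model was the quasi-likelihood fit of edgeR 4.0.16 (R 4.3.3) with TMM factors, over all 12 libraries by group, with a common biological coefficient of variation of 0.302. With filterByExpr at a minimum count of 10 and a minimum total of 15, 17008 genes entered, and the rest held 0.0453% of counts. Tests are two-sided, with Benjamini-Hochberg adjustment over all 17008 genes. Each SE was computed from the log2 change and its F statistic. No p-value was adjusted over the 7 genes alone, and lists are described by counts and medians. Genes eligible to be named were the 7 members, up to 4 passed genes of at least 1 CPM from each list and comparison, and the 3 nearest genes per member. Cadm3, Prr29, Pecam1, Adam17, Itga4, Itgb1, Tnf, Tmem119, Cldn5, Slco1c1, Lcn2, Csf3r, S100a9, Il1r1, Gabra6, Cbln3 and Pcp2 were named after their values were seen. So were Cdh5, Gp9, Ppbp, Gp1bb and Ikbkg. Snap25 and Mbp are tissue markers outside the lists and outside this naming rule. The members, lists and tests were chosen with earlier results of these data known. The fit was tested on simulated data. Replicate numbers do not mark pairs in the labels. Alternatives were DESeq2 1.42.0 and its size factors, limma 3.58.1 voom, no filter, the compared libraries alone, a replicate block, and leaving out each library. Marker sums without Lcn2, Pf4, or Lrg1 and Il1r1 were added after the data were seen. A gene of the leukocyte counter-receptor list is not reported here, and the list's counts and median leave it out.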

Additional observations from a re-analysis of the deposited data

How the results depend on the processing

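Icam1 after MCAO passed in all 18 alternatives run. The number of the 7 genes that rose after MCAO, 2 as reported, was 3 with no filter, by DESeq2 and on the compared libraries alone, where Selp passed as well. It was 1 under limma voom and with the replicate block, and 1 to 3 with a library left out. After pontine infarction it was 1 as reported, 2 with no filter, 3 by DESeq2, 0 by limma voom, and 0 to 2 with a library left out. Between the shams, 0 as reported, 1 gene (Selp) was higher by DESeq2 and 1 (Icam2) lower on the compared libraries alone. Selp after pontine infarction and between the shams, and Sele between the shams, gave no value on the compared libraries alone. No member passed for the difference between the responses under any alternative run, and none fell in either stroke. The cause of these changes was not tested.

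Of all genes, 3163 were called after MCAO, 1354 on the compared libraries alone, 1389 with the replicate block, and 1136 (without sham LN replicate 1) to 6170 (without MCAO replicate 2) with a library left out. After pontine infarction 694 were called, 1738 by DESeq2, 315 by limma voom, and 6 (without sham PN replicate 3) to 1416 (without MCAO replicate 2) with a library left out. For the difference 0 were called, 1 with no filter, 238 by DESeq2, and 0 to 970 (without MCAO replicate 2) with a library left out. Between the shams 3625 were called, 6365 on the compared libraries alone, and 2334 (without sham LN replicate 3) to 4294 (without MCAO replicate 2) with a library left out.

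The replicate block left out the unnumbered MCAO library. Deviations of same-numbered libraries correlated at 0.104 and 0.0426 for MCAO and sham LN, and at 0.0483, 0.15 and 0.154 for pontine infarction and sham PN, where each number matched its own best. With the block, Sele after MCAO had a log2 change of 3.53 (adjusted p = 0.0786). Signs of genes that had not passed turned for Icam2 in the difference (-0.016 with DESeq2 size factors, -0.018 by DESeq2, -0.14 with no filter, -0.00042 by limma voom, -0.061 with the block) and for Vcam1 in the difference (0.035 with the block). Leaving out 1 library at a time gave log2 changes from -0.11 to 0.35 for Icam2 and from -0.56 to 0.54 for Vcam1 after MCAO, and from -0.084 to 0.51 for Vcam1 and from -0.10 to 0.68 for Selplg after pontine infarction. In the difference they ran from -0.35 to 0.17 for Icam2 and from -0.96 to 0.31 for Vcam1. Between the shams they ran from -0.072 to 0.24 for Selplg and from -0.38 to 0.0016 for Ackr1.

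With 3 libraries per group, and Sele and Selp at 0 to 26 counts per sham library, depth limits what can be said of their changes.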
